A study of Homo sapiens with 6 samples.

Results

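The genes described here are 10 components of transforming growth factor beta (TGF-beta) signalling: the ligand TGFB1, the receptors TGFBR1, TGFBR2 and TGFBR3, the signal transducers SMAD2, SMAD3, SMAD4 and SMAD7, and the repressors SKI and SKIL. They were taken by name from the authors' deposited table of 33644 genes, and all 10 were found among the 13957 genes that have an adjusted p there. The members were selected on the pathway they belong to and on the log2 fold changes and levels of this same comparison, SMAD3 being among its largest falls. Their values are therefore a description and no independent evidence. The labels describe 3 samples of alt-LAMA3 KO cells, a knockout derivative of HEK293T, and 3 samples of WT HEK293T cells, all at day 0, untreated and kept in the same serum-containing medium. HEK293T cells descend from human embryonic kidney and express the large T antigen of SV40. How the knockout was made, and whether it is 1 clone, is not given in the sources used here.

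The table holds 1 comparison between 2 groups that its header does not name, and no value per sample. Positive log2 fold changes mean more RNA in what is here named the numerator group, and negative ones more in the denominator group. Neither can be equated with the alt-LAMA3 KO or the WT cells. LAMA3, the locus that names the knockout, had 18.98 normalized counts on average and a log2 fold change of -0.62 (SE 0.69) in the authors' deposited table and did not pass an adjusted p of 0.05. The markers of the labelled line were mostly missing: 1 of 10 markers of HEK293-derived lines (VIM) reached a mean normalized count of 72.0, and 3 of the 10 (NEFL, NEFM and SALL1) stood at 0. Of 10 T-lymphocyte markers, 9 reached that level, with a highest mean normalized count of 27074 for CD8A in the authors' deposited table. The lowest means took 9 shared values, 3 in genes with positive changes, 3 with negative ones and 3 with a change of 0, where 6 labelled samples would give 6. The mean of a gene may therefore include libraries that are in neither group, and the values may not come from the labelled HEK293T samples at all.

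TGF-beta is secreted in a latent form and, once released, brings together a pair of kinase receptors. The type II receptor TGFBR2 binds the ligand and phosphorylates the type I receptor TGFBR1, and the co-receptor TGFBR3 (betaglycan) presents the ligand at the cell surface. TGFBR1 then phosphorylates SMAD2 and SMAD3 at their C-terminal ends, and these join SMAD4 and act on genes in the nucleus. SMAD7 blocks the receptor, and SKI and SKIL (SnoN) hold SMAD complexes in a repressed state. In lymphocytes the pathway is known for restraining activation and for driving tissue-residence genes.

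SMAD2 and SMAD3, the SMADs that TGFBR1 phosphorylates, had log2 fold changes of -0.07 and -3.40. They were picked here because their changes differed most within a single role. Their sequences are given as background, and no link between sequence and change was tested. The last 30 coding bases before the stop codon are given for 4 SMADs, from GENCODE 29 transcripts. Capitals mark codons that specify serine in the motif that TGFBR1 phosphorylates. The motif ends SMAD2 and SMAD3 and is not at the end of SMAD4, the common partner, or of SMAD7, the inhibitor.
SMAD2: tccccttcagtgcgttgcTCAAGCatgTCA
SMAD3: tccccaagcatccgctgtTCCAGTgtgTCT
SMAD4: atgccgattgcagacccacaacctttagac
SMAD7: tgctggctagaggtcatcttcaacagccgg

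The coding sequences of SMAD2 (1404 bases with the stop codon) and SMAD3 (1278 bases) were identical at 75.6% of 1278 aligned bases. The longest run of SMAD2 bases without a SMAD3 counterpart was 90 bases, and 86 of them fell in SMAD2 exon 3. That exon interrupts the DNA-binding domain of SMAD2, so that full-length SMAD2, unlike SMAD3, is known to bind DNA poorly by itself. It lies at chr18:47870475-47870564 on the minus strand (GRCh38, GENCODE 29), is fully coding, and is skipped in 3 other protein-coding SMAD2 transcripts.
SMAD2 exon 3: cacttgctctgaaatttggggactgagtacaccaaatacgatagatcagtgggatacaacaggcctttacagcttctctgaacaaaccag

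Reads of the 2 genes can be told apart by sequence. Of 9197 distinct stretches of 31 bases in SMAD3 transcripts, 0 occurred in a transcript of another gene, and the same count was 0 for TGFBR2, SMAD7 and SKI. The highest shares were 7.13% for SMAD4, mostly with the overlapping annotated gene AC091551.1, and 4.83% for SMAD2. The levels of those 2 genes are therefore less certain than the others in this respect.

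In the comparison, TGFBR2, TGFBR3 and SMAD3 were lower in the numerator group, and 0 of the 10 were higher at an adjusted p of 0.05 in the deposited test (0 also at an unadjusted p of 0.05). SMAD3 differed most, being 10.5-fold lower in the numerator group, while the 95% intervals of SMAD2 and SMAD4 reached no further than 1.11-fold lower. The 3 members that passed are 30.0% of the 10, and 29.5% of all tested genes passed. The 3 lower members stand beside 14.8% of tested genes that were lower and 14.7% that were higher. The share called was thus near that of all genes and is no result about the members as a group. Among genes at or above a mean of 72.0, 3 of 8 members (37.5%) passed, against 42.6% of all genes at that level. The median log2 fold change was -0.15 over the 10 members and 0 over all tested genes. Of 9 tested T-lymphocyte markers, 7 were lower and 0 higher, with a median log2 fold change of -0.51. By comparison, 3 of the 10 members were lower and 7 did not pass. Whether markers and members changed together, and the part of the markers in the result, was not tested. In RNA from bulk samples, fewer cells of a type and less RNA per cell cannot be told apart.

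**Figure D1:**
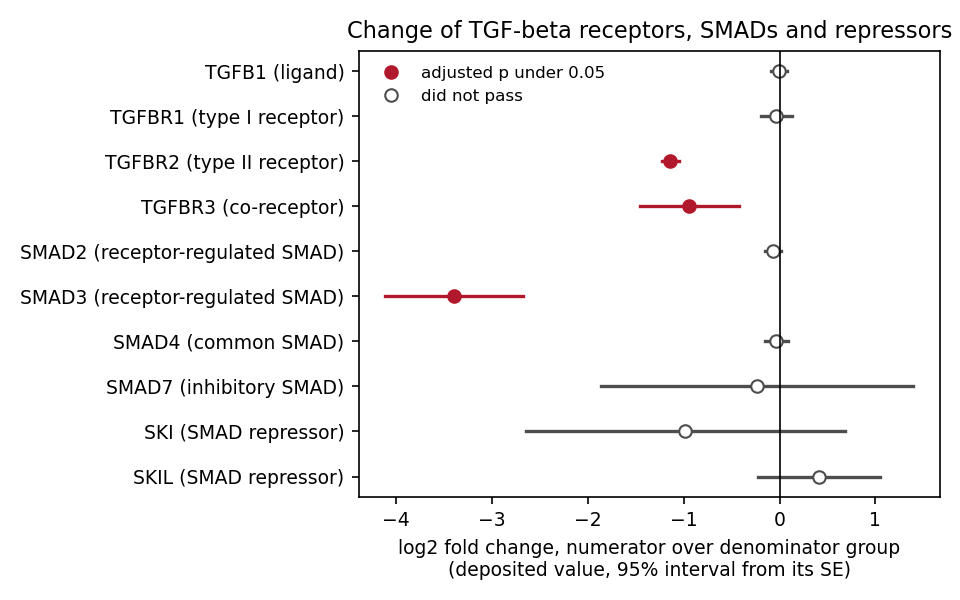
Deposited log2 fold change of each of the 10 genes, numerator over denominator group, with a 95% interval from its standard error. Filled points passed an adjusted p of 0.05. TGFBR2, TGFBR3 and SMAD3 lie left of 0 with their whole interval, and the intervals of SMAD7 and SKI are the widest.

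The ligand gene TGFB1 lies at chr19:41301587-41353911 on the minus strand (ENSG00000105329.9; GRCh38, GENCODE 29, as for all coordinates here). With 3963 normalized counts on average in the authors' deposited table, it stood above 95.1% of tested genes. The authors' deposited table put its log2 fold change at -0.01 (SE 0.04). The 95% interval ran from a fold of 0.937 to 1.06, and at its standard error a change of 1.08-fold would have been called.

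Of the receptors, the 2 signalling chains differed in their changes. TGFBR2 (chr3:30606502-30694142, plus strand; ENSG00000163513.17), the ligand-binding type II chain, had a mean normalized count of 2844 in the authors' deposited table, above 92.6% of tested genes. At a log2 fold change of -1.14 (SE 0.04) in the authors' deposited table, it was 2.20-fold lower in the numerator group, with a 95% interval of 2.08 to 2.33. That change stood 17th among all tested genes by adjusted p and 239th by size of fall among the 8312 genes at the 72.0 level. The standard error was small beside the median of 0.14 for all genes at or above 72.0. The same held for other abundant members, namely TGFB1 (0.04), SMAD2 (0.04), SMAD4 (0.06) and TGFBR1 (0.08).

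TGFBR1 (chr9:99104038-99154192, plus strand; ENSG00000106799.12), the type I kinase that signals with TGFBR2, had a similar mean normalized count of 3258 in the authors' deposited table. The log2 fold change of TGFBR1 was -0.03 (SE 0.08) in the authors' deposited table, with a 95% interval from 0.873-fold to 1.09-fold. It did not pass, and a change of 1.15-fold would have been called. The intervals of TGFBR1 and TGFBR2 do not overlap, though the difference between the 2 genes was not tested.

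TGFBR3 (chr1:91680343-91906335, minus strand; ENSG00000069702.10), the betaglycan co-receptor, was much scarcer, with a mean normalized count of 122 in the authors' deposited table. At -0.94 (SE 0.27) on the log2 scale in the authors' deposited table, it was 1.92-fold lower, with a 95% interval of 1.34 to 2.75. The fold was close to that of TGFBR2, with an interval that spans it. The call of TGFBR3 was lost when tested against a 1.5-fold change and with widened standard errors, whereas those of TGFBR2 and SMAD3 held.

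SMAD3 (chr15:67063763-67195195, plus strand; ENSG00000166949.15), a receptor-regulated SMAD that binds DNA directly, had a mean normalized count of 139 in the authors' deposited table, above 49.1% of tested genes. For SMAD3 the authors' deposited table gives a log2 fold change of -3.40 (SE 0.36). This is 10.5-fold lower in the numerator group, with a 95% interval of 6.42 to 17.3. By size of fall it stood 7th of the 8312 genes at or above 72.0.

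SMAD2 (chr18:47808957-47931146, minus strand; ENSG00000175387.15), the other receptor-regulated SMAD of this pathway, had a mean normalized count of 3590 in the authors' deposited table. Its log2 fold change of -0.07 (SE 0.04) in the authors' deposited table did not pass, with a 95% interval from 0.901-fold to 1.01-fold. SMAD4 (chr18:51028394-51085045, plus strand; ENSG00000141646.13), the common partner of both, had a mean normalized count of 2371 in the authors' deposited table. SMAD4 had a log2 fold change of -0.04 (SE 0.06) in the authors' deposited table, with a 95% interval from 0.897-fold to 1.06-fold. For SMAD2 and SMAD4, changes of 1.07-fold and 1.11-fold would have been called.

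The inhibitor SMAD7 and the repressor SKI were scarce, and their changes poorly resolved. SMAD7 (chr18:48919853-48952052, minus strand), which the receptor pathway itself is known to induce, had a mean normalized count of 25.5 in the authors' deposited table. Its change was -0.23 (SE 0.83) on the log2 scale in the authors' deposited table, and nothing under 4.08-fold would have been called. SKI (chr1:2228695-2310119, plus strand) had a mean normalized count of 6.93 and a log2 fold change of -0.98 (SE 0.85) in the authors' deposited table. For SKI the smallest change that would have been called was 4.21-fold. Differences as large as those of TGFBR2 and TGFBR3 were thus not detectable in SMAD7 or SKI at these standard errors.

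SKIL (chr3:170357678-170396835, plus strand) encodes SnoN, which is degraded when the pathway is active while its gene is a pathway target. It had 101 normalized counts on average in the authors' deposited table. Its log2 fold change of 0.41 (SE 0.32) in the authors' deposited table, the only positive value of the 10, did not pass, with a 95% interval from 0.858-fold to 2.07-fold. For SKIL a change of 1.73-fold would have been called, so it was better resolved than SMAD7 and SKI.

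**Figure D2:**
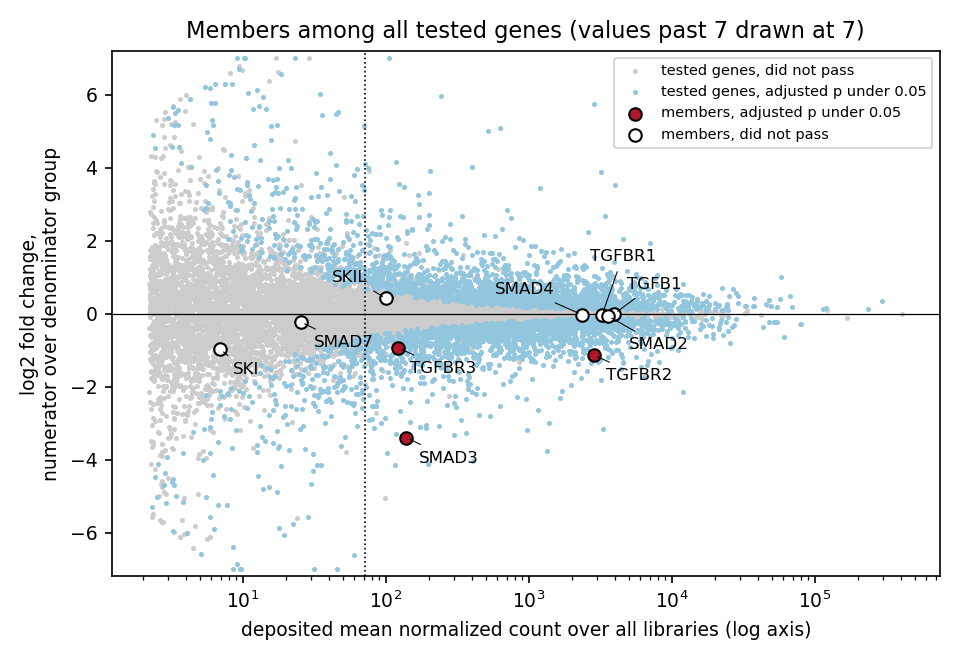
Each point is 1 of the 13957 genes with an adjusted p, by mean normalized count over all libraries (log axis) and log2 fold change, numerator over denominator group; the dotted line marks 72.0. SMAD3 lies among the lowest genes near its mean, TGFB1, TGFBR1, SMAD2 and SMAD4 lie at about 0, and SKI and SMAD7 lie in the wide cloud of scarce genes.

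By level the 10 genes fell into 5 abundant and 5 scarce ones. TGFB1, TGFBR2, TGFBR1, SMAD4 and SMAD2 had means per kilobase of merged exons from 98.7 to 1224 normalized counts. SMAD3, TGFBR3, SKIL, SMAD7 and SKI had 1.14 to 15.2 per kilobase, against a median of 34.6 over tested genes. The lowest of the abundant genes, SMAD2, stood 6.49-fold above the highest of the scarce ones, SMAD3. These means pool all libraries, and since SMAD3 differed 10.5-fold between the groups, its place and that gap may not hold within either group. In this order of means per kilobase, TGFB1 came first at 1224, then TGFBR2 at 605, TGFBR1 at 476, SMAD4 at 181 and SMAD2 at 98.7. Then came SMAD3 at 15.2, TGFBR3 at 14.0, SKIL at 12.9, SMAD7 at 5.06 and SKI at 1.14 per kilobase. The spread over samples is not known, so no neighbours in this order can be said to differ.

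The place of SMAD2 rests on its length, since its annotated exons merge to 36366 bases while its longest coding sequence is short. Per kilobase of longest coding sequence, a scale chosen after seeing the data, SMAD2 had 2563 normalized counts and stood second, after TGFB1 at 3387. On that scale the abundant genes spanned 1431 to 3387 and the scarce ones 3.18 to 109 per kilobase, so that the same 5 genes were abundant. Another scale, the median length of protein-coding transcripts, was tried before it and set aside because fragment transcripts shorten that length. It put TGFBR1 first at 4791 per kilobase and kept the 5 abundant genes, at 617 or more, above the 5 scarce ones, at 204 or less. The ligand, both receptor kinases, SMAD2 and SMAD4 were thus the abundant members on each scale, and the scarce ones held 2 of the 3 lower genes, TGFBR3 and SMAD3.

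**Figure D3:**
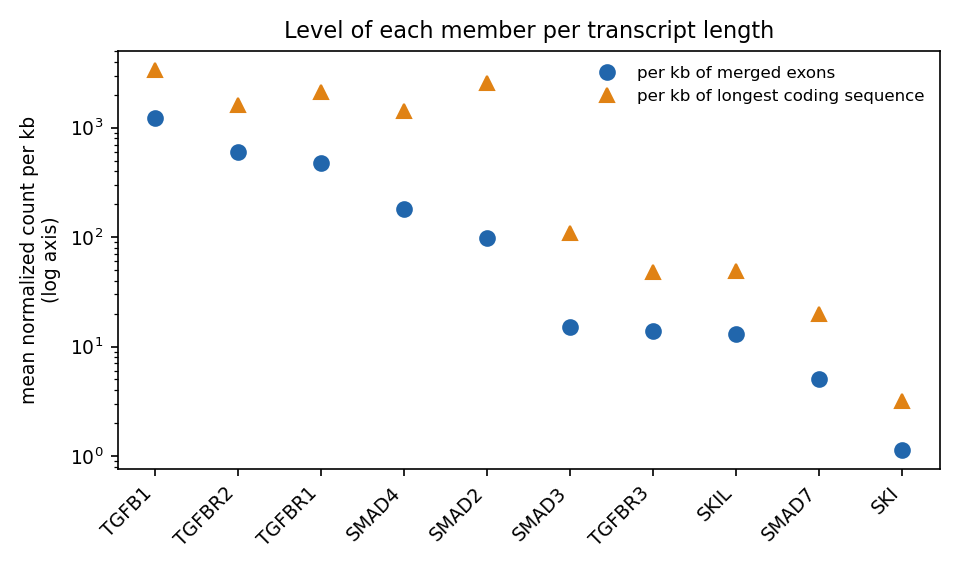
Mean normalized count of each member per kilobase (log axis), by merged exons (circles) and by longest coding sequence (triangles), in order of the former. The 5 genes at left lie above the 5 at right on both scales, from 98.7 upward against at most 15.2 by merged exons.

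The rest of the pathway was read through 5 lists with 77 genes, of which 58 had an adjusted p. Of the others, 7 had counts but no adjusted p, 8 had a mean of 0 and 4 were not found by name. Those 4 were the target genes CCN2, JUNB, SNAI1 and GPR15. Of the 58, 6 were higher and 15 lower in the numerator group, or 36.2% called, against 29.5% of all tested genes. Of all tested genes, 14.8% were lower and 14.7% higher. In the order of the lists below, 44.4%, 40.0%, 12.5%, 33.3% and 43.8% of tested genes were called. Their median log2 fold change was -0.15. Calls went both ways in 3 of the 5 lists and were lower in the other two, no test of direction was run, and the lists were written with earlier results of these data known.

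Of the genes for ligand production, latency and activation, 3 of 9 tested were higher and 1 lower, while 5 fell short of the threshold, with a median log2 fold change of -0.34. FURIN, a protease that cuts the TGF-beta precursor, was lower at -0.66 (SE 0.03), with a mean normalized count of 19493, in the authors' deposited table. LTBP4, a latent TGF-beta binding protein, was higher at a log2 fold change of 0.82 (SE 0.17) in the authors' deposited table. LRRC32, which holds latent TGF-beta on regulatory T cells, had a mean normalized count of 1.20 and no adjusted p in the authors' deposited table.

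Among other receptors of the family, 4 of 10 tested were lower, 0 were higher (1 at an unadjusted p of 0.05) and 6 did not pass, with a median log2 fold change of -0.39. ACVR2A, a type II activin receptor, was lower at -1.58 (SE 0.26) and ACVR1, a type I receptor for bone morphogenetic proteins (BMPs), was lower at -1.10 (SE 0.13), both in the authors' deposited table. BMPR1A, a type I receptor for BMPs, had a log2 fold change of -0.41 (SE 0.11) in the authors' deposited table. The accessory receptor ENG (endoglin), with a mean normalized count of 462, did not pass at -0.21 (SE 0.11) in the authors' deposited table.

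Of the other SMADs and their partners, 1 of 8 tested was lower and 7 did not pass, with a median log2 fold change of -0.17. The lower gene was CREBBP, an acetyltransferase that SMAD complexes recruit, at -0.65 (SE 0.07) in the authors' deposited table. SMAD6, the inhibitory SMAD of the BMP branch, had a mean normalized count of 12.8 and a log2 fold change of 0.86 (SE 0.75) in the authors' deposited table and did not pass. The BMP transducers SMAD1, SMAD5 and SMAD9 did not pass either. Their log2 fold changes were -3.19 (SE 1.80), -0.30 (SE 0.31) and 0.49 (SE 0.27) in the authors' deposited table. SMAD1, with a mean normalized count of 9.61, would have been called only from a 21.1-fold change. For SMAD5 and SMAD9, changes of 1.69-fold and 1.57-fold would have been called.

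Negative regulators and ubiquitin enzymes had 1 of 15 higher, 4 lower and 10 that did not pass, with a median log2 fold change of -0.02. USP9X, a deubiquitinase that acts on SMAD4, was higher at 1.48 (SE 0.27) in the authors' deposited table. PPM1A, a phosphatase for receptor-regulated SMADs, was lower at -0.48 (SE 0.08), and so was LDLRAD4, which keeps SMADs from the receptor, at -0.45 (SE 0.08), both in the authors' deposited table. The ubiquitin ligases SMURF1 and SMURF2, which act on the receptor through SMAD7, had log2 fold changes of 0.08 (SE 0.08) and 0.03 (SE 0.09) in the authors' deposited table and did not pass.

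Target genes of the pathway went both ways, with 2 of 16 tested higher, 5 lower and 9 that did not pass, and a median log2 fold change of -0.02. CDKN1A, an inhibitor of cyclin-dependent kinases that p53 also induces, was higher at 1.55 (SE 0.08) in the authors' deposited table. ID2, an inhibitor of basic helix-loop-helix factors that the pathway is known to repress in epithelial cells, was lower at -1.08 (SE 0.17) in the authors' deposited table. ITGAE, the integrin chain CD103 that TGF-beta induces in T cells, was lower at a log2 fold change of -0.35 (SE 0.14) in the authors' deposited table, a call lost under 4 of 7 alternatives.

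**Figure D4:**
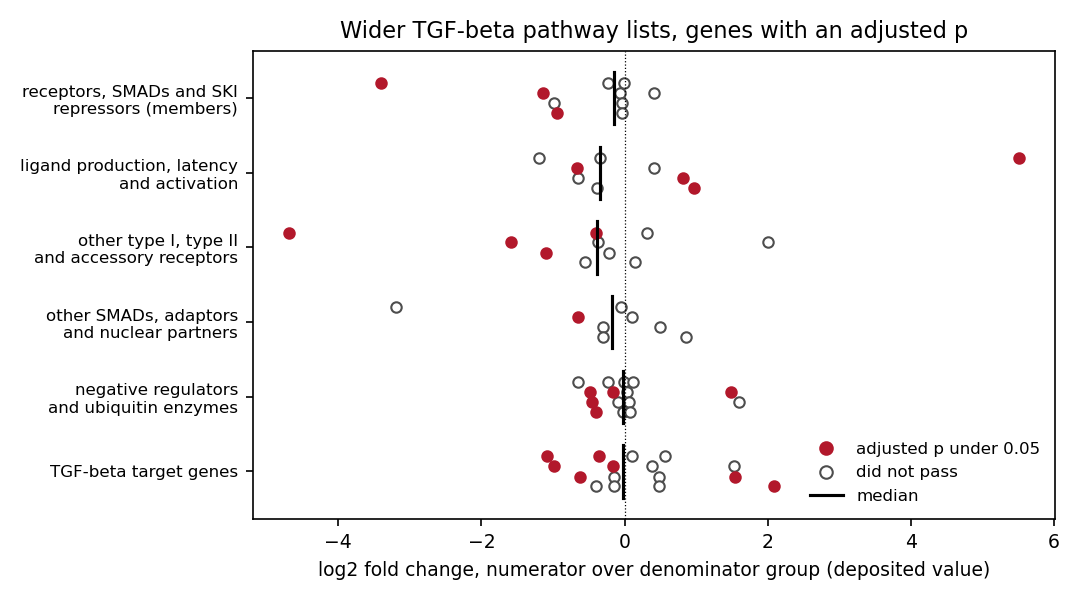
Deposited log2 fold change, numerator over denominator group, of each gene with an adjusted p in the 10 members (top) and in 5 wider lists; filled points passed an adjusted p of 0.05 and bars mark medians. The medians lie between -0.39 and -0.02, and filled points lie on both sides of 0 in 3 of the 5 wider lists.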

How the data were processed

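Per the labels' protocols, a SMARTer mRNA kit turned total RNA into libraries. The submitters' processing notes list STAR, Salmon and hg38, with no role for each. The mean over libraries is a normalized signal, the authors' baseMean, per the file headers. The deposited fold change and its standard error are log2 values. The deposited statistic is a score, equal to fold change over error to within 4.23e-07. The deposited adjusted p-value matched Benjamini-Hochberg adjustment to within 3.66e-07. The column names are those of a DESeq2 results table, but no source used here names the authors' program or model.

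The planned tests on samples were not run, since no value per sample is in the table, and the deposited comparison was used instead. The labels do not say whether samples came from separate cultures, so p-values may measure technical spread only. Depth per library is unknown. The 72.0 level is 5 per 1000000 of the summed means. The smallest callable change is the lowest statistic called (2.44) times the gene's standard error. IDs were matched without version to names (33483 matched) and to GENCODE 29 (33582 matched, 9 of 10 members with the same version). Alternatives changed the adjustment, threshold, null or errors (widened 2.03-fold, the robust spread of all statistics). They were also tested on simulated data, but no result of that is given here and no call rests on it. Named genes are all members, SMAD6, ITGAE and per list up to 3 called genes of largest change at or above 72.0. 1 gene this rule names is not reported here. FN1 and the genes named as unchanged, scarce or below 72.0 fall outside this rule and were chosen after their values were seen. RefSeq promoter windows of the members were searched for SMAD-binding motifs, and the matches are not reported, because the windows overlap annotated exons or lie away from the main start. Members and lists were chosen with earlier results of these data known. Python 3.11.15, numpy 2.4.6, pandas 2.3.3, scipy 1.17.1 and matplotlib 3.10.9 were used.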

Additional observations from a re-analysis of the deposited data

How the results depend on the processing

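No paired analysis was possible because the table holds no value per sample, and leaving out replicates was not run for the same reason. The members had 0 higher genes under all 7 alternatives, and 3 lower under 5 of them. The count of 0 could not have differed and is no check. Before adjustment 0 members were higher, and no alternative makes a p-value smaller than its unadjusted one. The 5 include centring, which could not change a call because its shift was 0. TGFBR3 lost its call against a 1.5-fold change (adjusted p = 1) and with widened standard errors (adjusted p = 0.429), which left 2 lower members in each. Against a 1.5-fold change, counts were 1 higher and 0 lower for ligand production, 2 lower for other receptors, 0 lower for other SMADs, 0 lower for negative regulators and 1 lower for targets. With widened errors, they were 0 higher for ligand production, 2 lower for other receptors, 0 higher and 2 lower for negative regulators, and 3 lower for targets. Targets also had 3 lower with no filter on low values and 3 at a threshold of 0.01. With the minimum mean, ligand production had 1 higher. Of the other named genes, BMPR1A, LDLRAD4, LTBP4, ITGAE, TGFB3 and ACVR1B lost their call both against a 1.5-fold change and with widened errors, CREBBP, FURIN, ID2 and PPM1A only against a 1.5-fold change, and USP9X and THBS1 only with widened errors. Centring changed no call of a named gene, as a shift of 0 could not. Over all genes, 653 passed against a 1.5-fold change and 1196 with widened errors, against 4120 as deposited. Levels per kilobase of longest coding sequence, added after seeing the data, differed over 1.5-fold from those by merged exons for all 10 members. Changes under about 4-fold could not be called in SMAD7 and SKI, and how far depth sets this was not tested, since depth per library is unknown.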

Other observations

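A few genes of the wider lists passed at means under 72.0 and were chosen here after their values were seen. THBS1, thrombospondin-1, which activates latent TGF-beta, had a mean normalized count of 46.2 and a log2 fold change of 5.51 (SE 1.08) in the authors' deposited table. It was the largest positive change of the 58 tested genes in the 5 lists, and its call was lost with widened standard errors. TGFB3, a second TGF-beta ligand, had a mean normalized count of 65.9 and a log2 fold change of 0.98 (SE 0.32) in the authors' deposited table. ACVR1B, the type I activin receptor that also signals through SMAD2 and SMAD3, was at -4.69 (SE 1.89) with a mean normalized count of 2.82 in the authors' deposited table. The calls of TGFB3 and ACVR1B were lost against a 1.5-fold change, with widened errors and at a threshold of 0.01, and that of ACVR1B also with no filter on low values.

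FN1, the fibronectin gene and a matrix target of the pathway, had a mean normalized count of 11118 and a log2 fold change of -0.99 (SE 0.06) in the authors' deposited table. Of the other matrix targets, COL1A1 and COL1A2 did not pass, at 1.52 (SE 1.05) and -0.15 (SE 1.52) in the authors' deposited table. Their mean normalized counts were 18.5 and 3.21. Only changes of 5.90-fold for COL1A1 and 13.1-fold for COL1A2 would have been called.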
